A study of Mus musculus with 16 samples.

Results

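The genes described here encode the enzymes and carriers through which a heart muscle cell takes up glucose, breaks it down to pyruvate and lactate, or diverts it into the pentose phosphate pathway. They were chosen by symbol, as a fixed list of 32 genes that matched 33 rows of the 35682 genes in the count table, because the symbol Aldoa stands on 2 rows. RNA was sequenced from ventricular myocytes of 16 mice, 8 of the line B3AR-Tg and 8 wild-type (WT) littermates. The transgene name refers to the beta-3 adrenergic receptor. All animals of both genotypes had TAC (transverse aortic constriction), in which the aorta is narrowed by surgery and the left ventricle pumps against a load, and were sampled 9 weeks later, so no group without surgery enters any comparison. Hearts were perfused by the Langendorff method, the myocytes were held on plates for 1 h, and libraries were stranded, total RNA libraries made from 500 ng after removal of ribosomal RNA. The promoter that drives the transgene, the species of the receptor, the sex and the age of the animals are not given in the sources used here.

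Glycolysis splits glucose into pyruvate with a small yield of ATP, and phosphofructokinase is its main committed and regulated step. Pyruvate enters mitochondria through a carrier or is turned into lactate by lactate dehydrogenase, while the pentose phosphate pathway draws off glucose 6-phosphate to make NADPH and ribose. The adult heart burns mostly fatty acids, and many of these steps are served by a muscle-type and a more widely expressed isoform, whose balance is known to differ between fetal, adult and loaded hearts.

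The libraries held between 5985335 and 14365864 counts, and between 14070 and 15713 genes had a count in a library. Levels are given as CPM (counts scaled to library size), adjusted by TMM factors, and 3 counts, taken as the limit of detection for counting error only, correspond to 0.201 to 0.487 CPM. After removal of low-count genes, 10945 genes were tested between genotypes with edgeR's quasi-likelihood test and Benjamini-Hochberg adjustment, and 4.91% of them passed an adjusted p of 0.05. The 7 myocyte markers summed to 30750 to 42070 CPM in WT animals and 37940 to 46220 CPM in B3AR-Tg. Of these markers, 1 had a lower fitted level in B3AR-Tg, and 1, Ryr2, was called higher. The 6 endothelial markers summed to 79.1 to 116 CPM in WT animals and 37.5 to 142 CPM in B3AR-Tg. All 6 endothelial markers had a lower fitted level in B3AR-Tg and 1 passed the test; 7 of the 8 B3AR-Tg sums lay below the lowest WT sum, and replicate 4 had the highest of all. Fibroblast markers were lower in B3AR-Tg: all 6 tested had a lower fitted level, 3 of them passed the test, and their list summed to 33.1 to 93.0 CPM in WT animals and 10.01 to 44.6 CPM in B3AR-Tg. In such bulk samples, fewer cells of a type and less RNA per cell cannot be told apart. The labels do not say how the animals were bred or processed together. The p-values take the animals as independent, which could not be checked.

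Of the 32 genes, 29 passed the low-count filter, and 2 changed between genotypes. Pfkm, the muscle isoform of phosphofructokinase, was higher in B3AR-Tg, and Pfkp, its platelet-type isoform, was lower. This count, 6.90% of the 29, lay close to the 4.91% called among all tested genes. By direction, 1 gene was higher, against 2.03% of all genes, and 1 was lower, against 2.88%. The fitted difference was above 0 for 18 of the 29 and below 0 for 11, with a median log2 fold change of 0.06 against 0.01 over all tested genes. For 24 of the 29 the log2 fold change was smaller than 0.3 in either direction. An unadjusted edgeR p under 0.05 was found for 9 of the 29, 6 higher and 3 lower. Over all genes it was found for 2117 of 10945, or 19.3%, a smaller share. No tested member separated the genotypes without overlap, which 0.448% of all genes did.

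Levels per kb of exon, which allow genes to be compared with each other, spanned a wide range along the pathway. In WT the highest deposited rows were Aldoa, the muscle aldolase, at a mean of 989 CPM per kb, Gapdh, glyceraldehyde 3-phosphate dehydrogenase, at 723, and Eno3, the muscle enolase, at 645. The B3AR-Tg means of these 3 genes were 994, 813 and 757 CPM per kb. The place of Gapdh is uncertain, because part of its counts lie on genes that share its sequence; with those added it had 1296 CPM per kb of Gapdh exon in WT and 1273 in B3AR-Tg, above Aldoa. Most pentose phosphate enzymes were scarce, though not the lowest of all. Lower in WT were Aldoc, the brain-type aldolase, at 0.0683 CPM per kb, and the second row of Aldoa at 0.0287. G6pdx, the entry enzyme glucose 6-phosphate dehydrogenase, had a mean of 0.344 CPM per kb in WT and 0.341 in B3AR-Tg, and Tkt, transketolase, had 1.33 and 1.43. Taldo1, transaldolase, stood apart from the rest of that branch at 31.5 CPM per kb in WT and 37.6 in B3AR-Tg.

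**Figure D1:**
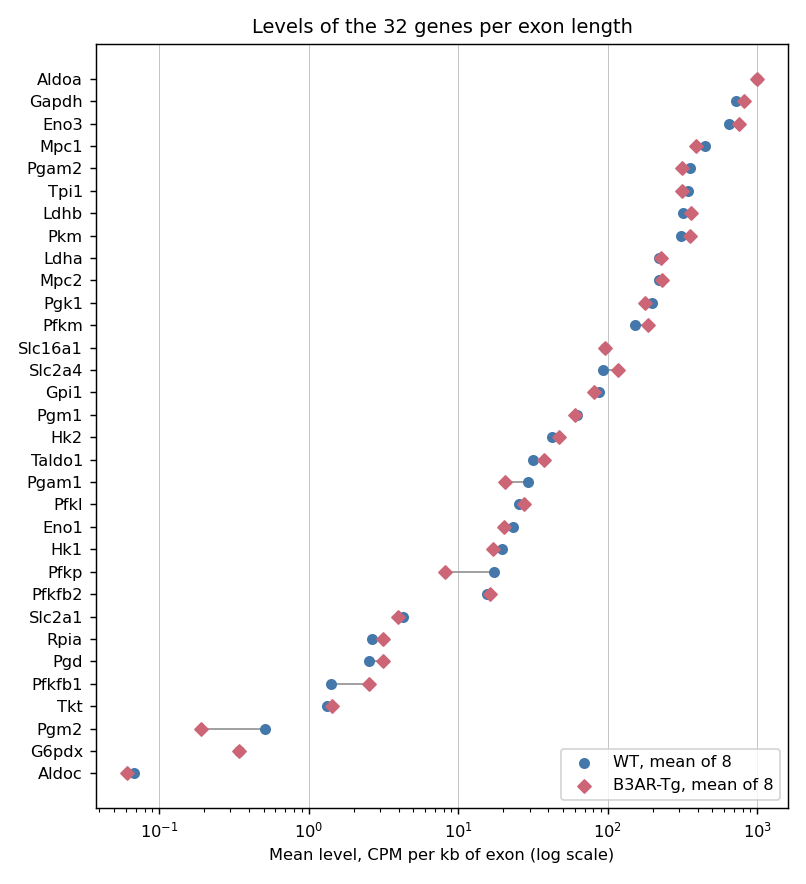
Mean level of each of the 32 genes in CPM per kb of exon on a log axis, with circles for WT and diamonds for B3AR-Tg (8 animals each) and a line joining the 2 means of a gene. Aldoa is the highest deposited row at 989 and 994 CPM per kb, above a Gapdh row that lacks the counts on genes sharing its sequence, and long lines mark Pfkp, Pfkfb1 and Pgm2, the last at or near the detection limit.

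Phosphofructokinase is made of subunits from 3 genes. The windows of 200 bases upstream of the annotated RefSeq start sites (GRCm38.p6) are shown for the 2 genes whose level changed, since they hold the sequence nearest to the start of transcription. Pfkp has 1 window, chr13:6648772-6648971 on the minus strand. For Pfkm, on the plus strand, the 2 windows shown lie within 10 bases of a GENCODE coding transcript's start, the distal at chr15:98092389-98092588 and the proximal at chr15:98108271-98108470. Capitals mark ACGTG or GCGTG, the core letters that hypoxia-inducible factors bind, on either strand (CACGT and CACGC where the match is on the other strand).
Pfkp: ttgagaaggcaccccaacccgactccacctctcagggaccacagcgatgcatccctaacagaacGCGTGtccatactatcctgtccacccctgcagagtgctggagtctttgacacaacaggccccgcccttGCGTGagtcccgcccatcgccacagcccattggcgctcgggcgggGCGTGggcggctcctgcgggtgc
Pfkm distal: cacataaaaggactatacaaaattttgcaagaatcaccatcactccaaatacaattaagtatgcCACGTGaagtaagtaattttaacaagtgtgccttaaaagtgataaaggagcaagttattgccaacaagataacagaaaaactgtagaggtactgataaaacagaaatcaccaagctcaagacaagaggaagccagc
Pfkm proximal: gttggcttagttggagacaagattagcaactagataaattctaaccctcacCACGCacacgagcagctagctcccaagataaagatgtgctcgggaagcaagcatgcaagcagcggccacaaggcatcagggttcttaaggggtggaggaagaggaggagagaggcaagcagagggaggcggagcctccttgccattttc
The Pfkp window was 65% G or C and held GCGTG 3 times. The distal Pfkm window was 35.5% G or C and held ACGTG on each strand at 1 place, as CACGTG, and the proximal window was 53% G or C and held GCGTG once. Pfkm also has windows that are not shown, chr15:98108356-98108555 and chr15:98111860-98112059. Their start sites lie 90 and 3594 bases from the nearest GENCODE coding start, and they held neither ACGTG nor GCGTG. A match is a description of letters, not of a bound site.

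Pfkm was measured at 377 CPM in the lowest WT animal, 466 in the median and 525 in the highest, and at 503, 549 and 679 CPM in B3AR-Tg. All 8 B3AR-Tg animals lay above the WT median and 5 lay above the highest WT animal, WT replicate 7, so the groups overlapped only at the edge. The means were 458 ± 47.9 (SD, n = 8) and 562 ± 60.0 CPM (SD, n = 8). The log2 fold change was 0.29 with a standard error of 0.08, a 1.23-fold higher level (edgeR adjusted p = 0.0439). The call sat near the threshold. It was lost when WT replicate 1, 2, 4, 5, 6 or 8 or B3AR-Tg replicate 1, 2, 5 or 8 was left out, with adjusted p between 0.0328 and 0.0988 over all 16 removals and a log2 fold change between 0.25 and 0.32.

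Pfkp showed the largest fold among the tested members. Its level was 41.8 CPM in the lowest WT animal, 63.6 in the median and 146 in the highest, against 23.5, 32.7 and 47.2 CPM in B3AR-Tg. Every B3AR-Tg animal lay below the WT median and 5 lay below the lowest WT animal, replicate 3, which alone overlapped the B3AR-Tg range. The means were 74.4 ± 33.0 CPM (SD, n = 8) for WT and 34.9 ± 9.08 CPM (SD, n = 8) for B3AR-Tg. The log2 fold change was -1.09 with a standard error of 0.21, a 2.13-fold higher level in WT (edgeR adjusted p = 0.00668). Leaving out any single animal kept the call, with log2 fold changes from -1.18 to -0.88; the smallest was without WT replicate 8, with an adjusted p from edgeR between 0.00346 and 0.0196 over the 16 removals.

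The 3 WT animals with the most Pfkp, replicates 8, 4 and 2 at 146, 87.1 and 86.2 CPM, were also the 3 with the most Nppa, which encodes the load-induced atrial natriuretic peptide. Their Nppa levels were 1349, 1076 and 1240 CPM, while the other 5 WT animals had between 78.4 and 330 CPM and the B3AR-Tg animals between 5.76 and 120 CPM. Within B3AR-Tg, Nppa alone followed Pfkp only in part. Replicates 3 and 7, ranked 1 and 3 by Pfkp, ranked 2 and 1 by Nppa. Replicate 1 had 44.1 CPM of Pfkp, behind only replicate 3, and the lowest Nppa, 5.76 CPM. All 5 cardiac load genes examined (Nppa, Nppb, Myh7, Acta1 and Ankrd1) were called lower in B3AR-Tg, with sums of 4805 to 18140 CPM in WT animals and 1920 to 6506 CPM in B3AR-Tg. By that sum, the 3 animals with the most Pfkp were also the 3 highest in each genotype, but in reverse order. In falling order of Pfkp, WT replicates 8, 4 and 2 had load sums of 13030, 15290 and 18140 CPM. B3AR-Tg replicates 3, 1 and 7 had load sums of 3971, 4161 and 6506 CPM. Counted from the highest in their genotype, those WT replicates ranked 2, 5 and 1 by fibroblast sum and 7, 5 and 2 by endothelial sum. The B3AR-Tg replicates ranked 6, 5 and 2 by fibroblast sum and 7, 6 and 2 by endothelial sum. Next by Pfkp among WT animals was replicate 6 at 64.1 CPM, which had the lowest WT Nppa. It ranked 7 by load sum, 8 by fibroblast sum and 3 by endothelial sum. Next by Pfkp among B3AR-Tg animals was replicate 6, which ranked 4 by load sum, 4 by fibroblast sum and 3 by endothelial sum. Fibroblast and endothelial markers also moved with genotype, as given above. No fibroblast, endothelial or mural marker was at 0 in all animals, though the fibroblast marker Tcf21 was at 0 in 13 libraries. The 5 mural markers all had a lower fitted level and none passed, with sums of 50.9 to 94.4 CPM and 19.3 to 76.3 CPM, and the 6 leukocyte markers summed to 4.15 to 11.6 CPM and 0.795 to 5.82 CPM. With the mean level of 12 fibroblast and endothelial markers as a covariate, the log2 fold change of Pfkp was -0.87 (edgeR adjusted p = 0.308) and that of Pfkm 0.18 (edgeR adjusted p = 0.596). In that fit 3 of all tested genes passed the threshold. The part of these cells, and of load, in the 2 differences was not tested further.

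**Figure D2:**
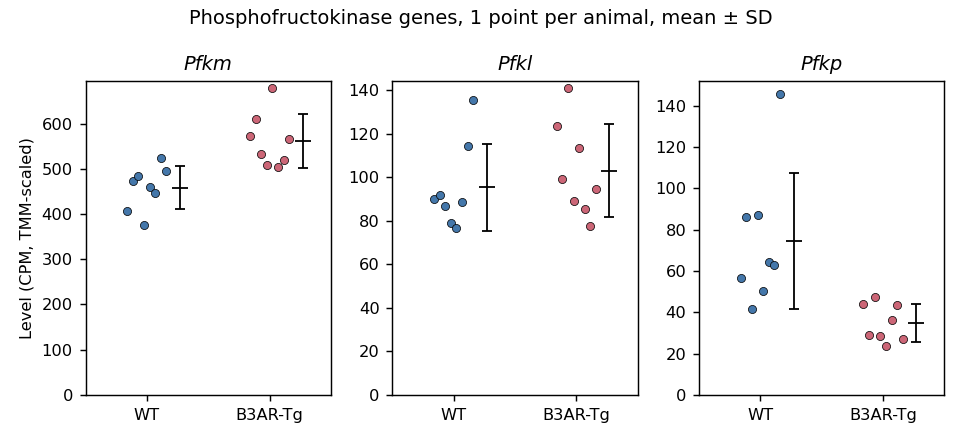
Levels of Pfkm, Pfkl and Pfkp in CPM scaled by TMM factors, with 1 point per animal in replicate order and a bar for mean ± SD (n = 8 per genotype), each axis starting at 0. Pfkm points shift upward from 377 to 525 CPM in WT to 503 to 679 CPM in B3AR-Tg, Pfkl overlaps throughout, and Pfkp falls from 41.8 to 146 CPM to 23.5 to 47.2 CPM.

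Pfkl, the liver-type subunit, spanned 76.5 to 136 CPM among WT animals and 77.8 to 141 CPM among B3AR-Tg animals, and its log2 fold change of 0.11 ± 0.13 (standard error) did not pass the test (edgeR adjusted p = 0.686). Expressed per kb, Pfkm made up a median of 78.9% of the 3 phosphofructokinase transcripts in WT and 84.8% in B3AR-Tg. The share of Pfkp was 7.78% (4.99% to 14.4%) in WT and 3.76% (2.08% to 4.99%) in B3AR-Tg. Pfkl held 12.7% and 11.6%. The 3 subunits thus kept the same order, with the muscle form first, in the medians of both genotypes. Pfkp overlaps Pitrm1, a mitochondrial peptidase gene. Of the 31-base words of the longest coding Pfkp transcript, 17.5% also occurred in Pitrm1, matched on both strands. Counts of the pair are therefore uncertain, but this share does not measure by how much, and the strand setting of the counting is not given. Pitrm1 itself had a mean of 44.1 CPM among WT and 47.3 CPM among B3AR-Tg animals, with a log2 fold change of 0.10 ± 0.08 (edgeR adjusted p = 0.504).

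The bifunctional enzymes that make and break down fructose 2,6-bisphosphate, the strongest activator of phosphofructokinase, were measured as Pfkfb1 and Pfkfb2. Pfkfb1, the liver and muscle form, was scarce, with 11 to 36 counts per WT library and 23 to 71 per B3AR-Tg library. Its level was 1.32, 2.40 and 5.30 CPM in the lowest, median and highest WT animal and 2.40, 5.37 and 6.52 CPM in B3AR-Tg. Of the B3AR-Tg animals, 7 were above the WT median and replicate 3 was below it. The log2 fold change of 0.87 ± 0.28 did not pass (edgeR adjusted p = 0.0771). It passed with DESeq2 (adjusted p = 0.0330), with limma voom (0.0226), with library size only (0.0485), and without WT replicate 5 (0.0481), WT replicate 6 (0.0350) or B3AR-Tg replicate 3 (0.0378). Pfkfb2, the heart form, was far more abundant per kb (15.6 CPM per kb in WT against 1.42 for Pfkfb1) and had a log2 fold change of 0.06 ± 0.13 (adjusted p = 0.853).

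The isoform pairs were compared within each library as a log2 ratio of counts, which no library scaling can alter. Of the 4 pairs, only Pfkm/Pfkp passed an exact two-sided permutation test over all 12870 splits of the animals, adjusted over the 4 pairs. The log2 ratio was 1.76, 2.82 and 3.54 in the lowest, median and highest WT animal and 3.495, 3.98 and 4.85 in B3AR-Tg. The 8 B3AR-Tg animals were above the WT median and 7 were above the highest WT animal, replicate 3, leaving B3AR-Tg replicate 3 as the only animal of its group inside the WT range. The difference in means was 1.32 with a standard error of 0.27, and the exact permutation p was 0.000311 (0.00124 adjusted). Per kb of exon, the median ratio of Pfkm to Pfkp was 10.1 in WT and 22.6 in B3AR-Tg. The pair restates the changes of its 2 genes and is not independent of them.

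The hexokinase pair gave a weaker contrast. Hk1, the widely expressed hexokinase, had 63.8, 88.6 and 131 CPM in the lowest, median and highest WT animal and 68.7, 79.8 and 103 CPM among B3AR-Tg animals (log2 fold change -0.20 ± 0.13, edgeR adjusted p = 0.440). Hk2, the insulin-responsive form of muscle, had 195, 242 and 302 CPM in WT animals and 229, 257 and 330.1 CPM among B3AR-Tg animals (log2 fold change 0.17 ± 0.10, edgeR adjusted p = 0.389). Both genes overlapped between genotypes, and the 3 highest Hk1 levels were those of WT replicates 2, 8 and 4 at 131, 127 and 104 CPM. The log2 ratio of Hk1 to Hk2 was lower in B3AR-Tg by -0.34 ± 0.16, with an exact permutation p of 0.0477 that became 0.0954 over the 4 pairs. It passed without WT replicate 6 (adjusted exact permutation p = 0.0286), the WT animal with the lowest ratio, -1.89. Hk2 held a median of 68.3% of the 2 transcripts per kb in WT and 73.0% in B3AR-Tg.

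Glucose enters the myocyte through Slc2a4, the insulin-regulated transporter GLUT4, and Slc2a1, the basal transporter GLUT1. Slc2a4 was measured at 177, 258 and 307 CPM in the lowest, median and highest WT animal and at 267, 315 and 394 CPM in B3AR-Tg. All 8 B3AR-Tg animals were above the WT median and 4 were above the highest WT animal. The log2 fold change of 0.33 ± 0.10 fell short of the threshold with edgeR (adjusted p = 0.0725). It passed with DESeq2 (adjusted p = 0.0360), with library size only (edgeR adjusted p = 0.0378) and without B3AR-Tg replicate 4 (edgeR adjusted p = 0.0478). Slc2a1 had 9.41, 13.1 and 22.1 CPM in WT animals and 10.6, 12.9 and 16.5 CPM in B3AR-Tg, with a log2 fold change of -0.10 ± 0.16 (edgeR adjusted p = 0.767). Its 2 highest animals were WT replicates 8 and 4, at 22.1 and 17.3 CPM, and those 2 had the lowest Slc2a4/Slc2a1 log2 ratios, 3.70 and 3.35. The ratio was higher in B3AR-Tg by 0.38 ± 0.20, with an exact permutation p of 0.0762 (0.102 adjusted), and by 0.47 without WT replicate 5 (exact permutation p = 0.0435 adjusted). Slc2a4 made up a median of 96.1% of the 2 transporters per kb in WT and 96.7% in B3AR-Tg.

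Lactate dehydrogenase tetramers are built from Ldha, the muscle-type subunit, and Ldhb, the heart-type subunit. Ldha had 339, 410.1 and 529 CPM in the lowest, median and highest WT animal and 382, 423 and 474 CPM among B3AR-Tg animals (log2 fold change 0.03 ± 0.08, edgeR adjusted p = 0.897). Ldhb had 285, 440 and 479 CPM in WT animals and 384, 468 and 588 CPM among B3AR-Tg animals (log2 fold change 0.18 ± 0.12, edgeR adjusted p = 0.439). The low end of Ldhb was set by WT replicates 8 and 4, at 285 and 300.2 CPM, while the other WT animals had between 417 and 479 CPM. Those 2 animals also had the lowest log2 ratios of Ldhb to Ldha, -0.89 and -0.60, and the other 14 animals lay between -0.06 and 0.44. The difference between genotypes was 0.15 ± 0.18 (exact permutation p = 0.426 before and after adjustment).

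**Figure D3:**
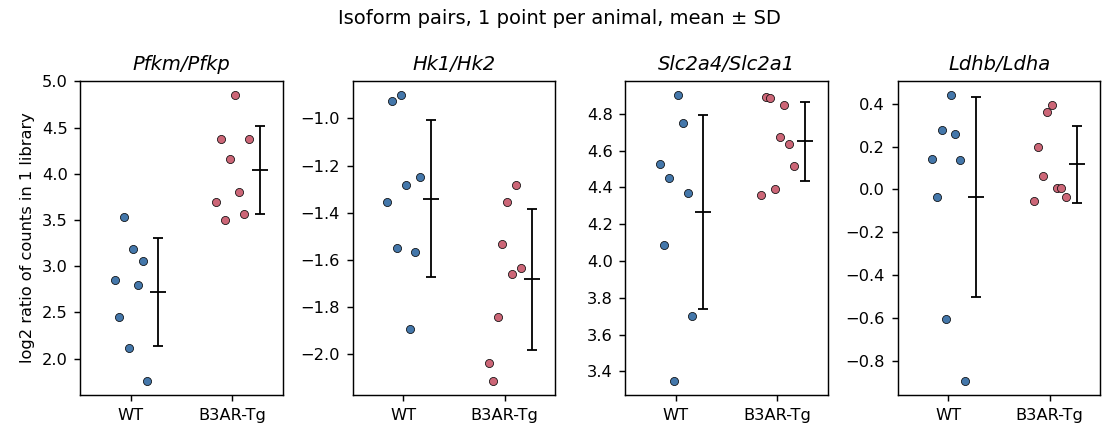
Log2 ratio of the counts of 2 genes in the same library for 4 isoform pairs, with 1 point per animal and a bar for mean ± SD (n = 8 per genotype), each panel with its own axis. Pfkm/Pfkp moves from a WT mean of 2.72 to 4.04 in B3AR-Tg, while the other 3 pairs overlap widely and WT replicates 4 and 8 form the low points of Slc2a4/Slc2a1 and Ldhb/Ldha.

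Lactate and pyruvate leave the cytosol through carriers. Slc16a1, the monocarboxylate transporter MCT1, had a median of 420.0 CPM among WT and 429 CPM among B3AR-Tg animals and a log2 fold change of 0.01 ± 0.08. The mitochondrial pyruvate carrier is formed by Mpc1 and Mpc2. Mpc1 had 514, 665 and 753 CPM in the lowest, median and highest WT animal and 442, 577 and 659.9 CPM in B3AR-Tg. All 8 B3AR-Tg animals lay below the WT median of Mpc1, but only replicate 5 lay below the lowest WT animal, and the log2 fold change of -0.20 ± 0.09 did not pass (edgeR adjusted p = 0.208). Mpc2 had a log2 fold change of 0.07 ± 0.10 (edgeR adjusted p = 0.730), and its median share of the 2 carrier transcripts per kb was 33.4% in WT and 37.3% in B3AR-Tg.

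In upper glycolysis, no tested gene passed. Gpi1, glucose phosphate isomerase, and Tpi1, triosephosphate isomerase, had log2 fold changes of -0.11 and -0.13. Aldoa had a median of 1745 CPM in WT animals, 1791 CPM in B3AR-Tg animals and a log2 fold change of 0.01 ± 0.10. The second row with the symbol Aldoa held 2 counts over all animals, and Aldoc held 33, so neither was tested.

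Lower glycolysis had 7 tested genes, 3 with a higher and 4 with a lower fitted level in B3AR-Tg, and none passed. Among them, Eno3 and Pkm, pyruvate kinase of muscle, had log2 fold changes of 0.23 ± 0.10 and 0.22 ± 0.10 (edgeR adjusted p = 0.185 and 0.234). With library size only, Eno3 passed (edgeR adjusted p = 0.04455). Pgam1, the brain-type phosphoglycerate mutase, had 33.5, 48.7 and 82.5 CPM in the lowest, median and highest WT animal and 25.3, 33.3 and 56.8 CPM in B3AR-Tg. Of the B3AR-Tg animals, 4 lay below the lowest WT animal, while replicates 1 and 3 lay above the WT median. Its log2 fold change was -0.51 ± 0.20 (edgeR adjusted p = 0.149). Pgam2, the muscle form, had -0.18 ± 0.11 and remained the main transcript of the pair, at a median of 93.0% per kb in WT and 94.3% in B3AR-Tg. Eno1, the widely expressed enolase, and Pgk1, phosphoglycerate kinase, had log2 fold changes of -0.19 and -0.17. Eno3 held a median of 96.8% of the 2 enolase transcripts per kb in WT and 97.5% in B3AR-Tg.

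**Figure D4:**
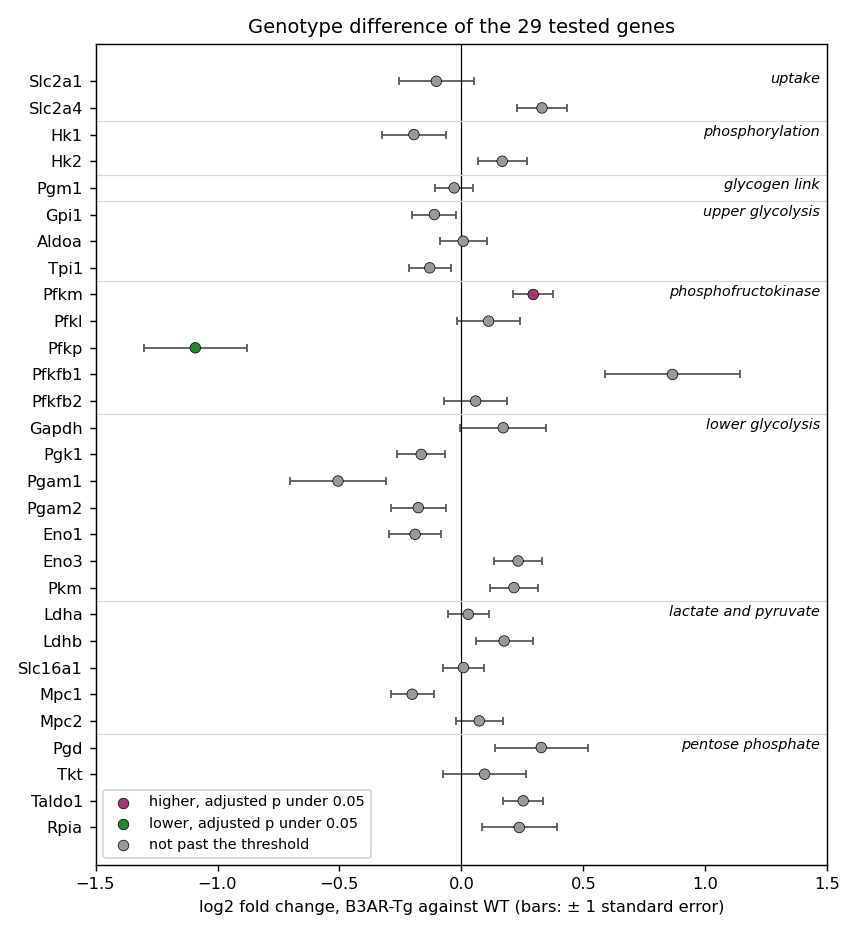
Log2 fold change of B3AR-Tg against WT with bars of 1 standard error for the 29 tested genes, ordered by step of the pathway. Only Pfkm at 0.29 and Pfkp at -1.09 carry the colours of genes past the adjusted threshold, and most other points lie within 0.3 of 0.

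Gapdh, a common reference gene, was uncertain as deposited. Its level ranged from 691 CPM in WT replicate 3 to 1876.3 CPM in B3AR-Tg replicate 1, a 2.72-fold range. Among the deposited genes, 111 others shared at least 10% of the 31-base words of the longest coding Gapdh transcript. Of these, 95 carried counts, and they held 38.0% of the counts of the whole group. The share outside the Gapdh row was 2.90% in B3AR-Tg replicate 1, 31.9% to 38.6% in 10 animals and 57.9% to 62.0% in 5 animals (WT replicates 3, 5 and 8 and B3AR-Tg replicates 3 and 4). Both genotypes held animals in the upper 2 of these bands. Summed over Gapdh and those genes, the level was 1699 to 2275 CPM in WT animals and 1741 to 2111 CPM in B3AR-Tg animals, a 1.34-fold range over all animals. The log2 fold change was 0.17 ± 0.18 for the deposited row (edgeR adjusted p = 0.638) and -0.025 for the sum (edgeR adjusted p = 0.898), and neither passed the test. Beside Pfkp and Gapdh, no member had a comparable part of its counts in genes sharing its words.

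**Figure D5:**
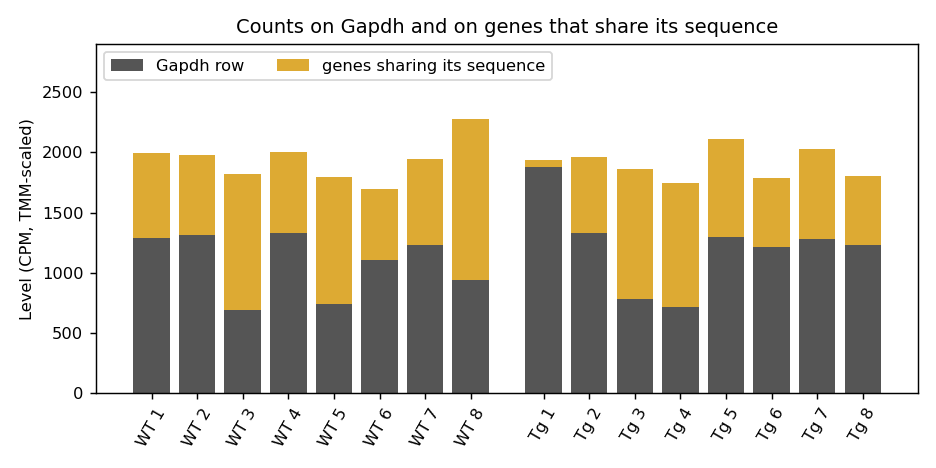
Stacked bars of the CPM on the Gapdh row and on 111 genes that share its sequence in each animal, WT replicates on the left and B3AR-Tg (Tg) on the right, from 0. The dark part varies from 691 to 1876.3 CPM, while the full bars stay between 1699 and 2275 CPM.

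All 4 tested genes of the pentose phosphate branch had a higher fitted level in B3AR-Tg and none passed. Taldo1 came nearest: 40.6, 42.0 and 48.4 CPM in the lowest, median and highest WT animal and 41.7, 51.4 and 62.7 CPM in B3AR-Tg. For Taldo1, 5 B3AR-Tg animals were above the highest WT animal, and the log2 fold change was 0.25 ± 0.08 (edgeR adjusted p = 0.0780). It passed without B3AR-Tg replicate 7 (edgeR adjusted p = 0.0338) and with library size only (edgeR adjusted p = 0.0485). Pgd, 6-phosphogluconate dehydrogenase, had 0.33 ± 0.19, Rpia, ribose 5-phosphate isomerase, 0.24 ± 0.15 and Tkt 0.10 ± 0.17 as log2 fold changes. These 3 genes had between 28 and 111 counts per library, which limits how small a difference could be seen. G6pdx was below the filter, with 4 to 17 counts per library and a median of 0.906 CPM among WT and 0.929 CPM among B3AR-Tg animals.

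Phosphoglucomutases link the pathway to glycogen. Pgm1, the main form, had a median of 177 CPM in WT animals and 173 CPM in B3AR-Tg animals, with a log2 fold change of -0.03 ± 0.08 that turned to 0.05 when libraries were scaled by total counts alone. Pgm2 was below the filter. It had 4 to 18 counts per WT library and 0 to 11 per B3AR-Tg library, 0.523 to 1.77 CPM against 0 to 0.803 CPM, and all 8 B3AR-Tg animals were below the WT median. Without the low-count filter its log2 fold change was -1.31 ± 0.44 and did not pass (edgeR adjusted p = 0.119).

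Counts of all short motifs searched are given for upstream windows of 250 bases, on both strands. They cover all 32851 windows of the RefSeq table and the 49 windows of the 31 members that had one. ACGTG was in 16.572% of all windows and in 15 of the 49 windows of members, and GCGTG was in 28.157% and in 27 of the 49. GGGCGG, the box bound by Sp factors, was in 32.742% of all windows and in 26 of the 49. A longer motif of 10 letters, not spelled out here, was in 3.202% of all windows and in 2 of the 49, those of Ldhb and Mpc2. The motifs can overlap each other, several members have more than 1 window, base composition was not matched, and the counts are descriptions.

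A wider list of 44 transporters and enzymes of the same and adjoining pathways had 43 genes in the table and 28 that could be tested. In B3AR-Tg, 2 were higher and 1 was lower, against 2.03% and 2.88% of all tested genes. Together they made 10.71% of the 28, against 4.91% of all tested genes. The median log2 fold change was 0.05, against 0.01 over all genes. Slc16a7, the high-affinity monocarboxylate transporter MCT2, had 2.59, 5.85 and 9.37 CPM in the lowest, median and highest WT animal and 8.98, 13.1 and 18.1 CPM in B3AR-Tg. All but 1 B3AR-Tg animal lay above the highest WT animal, the log2 fold change was 1.19 ± 0.22 (edgeR adjusted p = 0.00543), and leaving out any single animal kept the call. With the marker covariate the value was 1.31 (edgeR adjusted p = 0.164).

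Sord, sorbitol dehydrogenase of the polyol pathway, rose from 112, 159 and 203 CPM in the lowest, median and highest WT animal to 148, 211 and 242 CPM in B3AR-Tg. Of the B3AR-Tg animals, 6 lay above the highest WT animal, and replicate 7 lay below the WT median. The log2 fold change was 0.42 ± 0.11 (edgeR adjusted p = 0.0326). Gpd1, the cytosolic glycerol 3-phosphate dehydrogenase, was lower, at 24.4, 31.3 and 42.0 CPM in B3AR-Tg against 24.0, 43.5 and 67.6 CPM in WT, and every B3AR-Tg animal was below the WT median. Its log2 fold change was -0.57 ± 0.16 (edgeR adjusted p = 0.0454). Both calls depended on single animals. That of Sord was lost without WT replicate 2, 4 or 8 or B3AR-Tg replicate 2, 5 or 8 (adjusted p up to 0.0718), and that of Gpd1 was kept only without WT replicate 3 or 7 or B3AR-Tg replicate 3 (adjusted p up to 0.0975). With the marker covariate, Sord had 0.21 (edgeR adjusted p = 0.629) and Gpd1 -0.57 (edgeR adjusted p = 0.407).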

How the data were processed

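The authors deposited 1 table in which each animal has a column of raw, whole-number counts for every gene, not normalized. The submitters' processing notes name Salmon and GRCm39, without version or role; the strand setting and the treatment of reads that match several genes are not given in the sources used here. Genotype and replicate number came from the labels. No libraries of a genotype agreed within sampling noise (chi-square per gene of 6.03 to 58.9 over 56 pairs).

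Genes were tested with edgeR 4.0.16 in R 4.3.3 on the deposited counts of all 16 animals, with genotype as the only term, TMM scaling and filterByExpr (minimum count 10, minimum total 15). P-values were adjusted by Benjamini-Hochberg over all 10945 tested genes and are two-sided. Values after ± are standard errors for log2 fold changes and ratio differences, and SD where so named. Pair ratios used log2 counts with 0.5 added, and the smallest exact permutation p is 0.000155. CPM uses TMM-scaled totals of the tested genes. Exon lengths and shared words of 31 bases came from GENCODE M21 (GRCm38) by gene ID, and promoters from RefSeq (GRCm38.p6), so no GRCm39 coordinate is given. Exon length is the merged length of all annotated exons of a gene, so levels and shares per kb are not numbers of transcript molecules.

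All 32 members get a value; those past the threshold and the 8 genes of the pairs are given in full, and genes of the wider list are named only past the threshold. The members and all lists were chosen with earlier results of these data known. Alternatives were other scalings and filters, DESeq2 1.42.0, limma 3.58.1 (voom with sample weights), a replicate block, a covariate of 12 fibroblast and endothelial markers, other thresholds and the removal of each animal. Summing Gapdh with the genes that share its sequence was added after seeing the data. The edgeR genotype test was first tried on simulated counts. Transgene sequence was not analysed here.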

Additional observations from a re-analysis of the deposited data

Results flagged for a closer look

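In 4 of 72 groups of 8 animals searched, 1 animal stood apart by Dixon's criterion on log2 levels, which flags about 1 in 20 groups by chance (3.6 expected). Slc2a4 was lowest in WT replicate 4 at 177.0 CPM, while the remaining 7 WT libraries held 250.2 to 307.4 CPM. Pfkfb1 was lowest in B3AR-Tg replicate 3 at 2.401 CPM (23 counts), against 4.619 to 6.518 CPM. Pgd was highest in B3AR-Tg replicate 5 at 10.19 CPM (111 counts), against 5.533 to 7.309 CPM. Sord was lowest in B3AR-Tg replicate 7 at 148.2 CPM, against 202.1 to 241.8 CPM.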

How the results depend on the processing

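Pfkp was called lower under every alternative but the marker covariate (0 members lower and 0 higher, 0 of the wider list and 3 of all genes called, 1244 of all genes at an unadjusted p under 0.05). The number of members called higher was 0 with upper-quartile scaling (Pfkm adjusted p = 0.0517), without the low-count filter (0.0645) and at an adjusted p of 0.01. It was 2 with limma voom, 3 with DESeq2, 4 at an adjusted p of 0.1 and 5 with library size only, and 0 to 2 when 1 animal was left out. Library size only moved the median log2 fold change of all genes from 0.01 to 0.08 and the calls from 222 higher and 315 lower to 346 and 165.

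All genes called were 537 as reported, 109 at an adjusted p of 0.01 and 908 at 0.1, and 272 to 675 with 1 animal left out; the low end came without WT replicate 4 (272) and B3AR-Tg replicates 5 (277) and 8 (345). Of the wider list, 1 was called at 0.01, 5 at 0.1, and 1 to 4 with 1 animal left out. Leaving out 1 animal gave pair differences of 1.19 to 1.44 for Pfkm/Pfkp, -0.42 to -0.28 for Hk1/Hk2, 0.25 to 0.47 for Slc2a4/Slc2a1 and 0.03 to 0.22 for Ldhb/Ldha.

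Same-numbered animals were different animals, and their deviations correlated between -0.22 and 0.09, with 0 of 16 correlating best with its own number, so the numbers were not taken as pairs. With the replicate block, 230 genes, 0 members higher, 1 member lower (Pfkp, -1.03, adjusted p = 0.0415) and 1 gene of the wider list were called. Pfkm then had an adjusted p of 0.111, and the Pfkm/Pfkp difference of 1.32 an adjusted p of 0.0625 by exact permutation of signs.

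Signs turned only for members without a call. With the marker covariate, log2 fold changes became 0.057 for Hk1, -0.007 for Pfkl, -0.303 for Pfkfb2, -0.111 for Aldoa, -0.039 for Eno3 and -0.149 for Mpc2. Others were Pfkfb2 with limma voom (-0.056), Pgm1 with library size only (0.047) and Gapdh summed with its sharing genes (-0.025). With 1 animal left out, the range spanned 0 for Slc2a1 (-0.163 to 0.027), Pfkfb2 (-0.044 to 0.106), Aldoa (-0.038 to 0.065), Ldha (-0.009 to 0.083), Slc16a1 (-0.019 to 0.043) and Pgm1 (-0.062 to 0.002). The cause was not tested. Counts under about 100 per library limit Pfkfb1, Pgd, Tkt and Rpia.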
